A study of Homo sapiens with 2 samples.

Results

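The EGF receptor ligands and the ERBB receptors were examined in Cal-27 cells, an established line of oral (tongue) squamous cell carcinoma. The set was defined by gene name and holds 10 of the 20263 genes listed: the ligands EGF, TGFA, HBEGF, AREG, EREG, BTC and EPGN, and the receptors EGFR, ERBB2 and ERBB3. One culture was stably transduced with an shRNA against HIPK2 (GV-248-HIPK2-sh), a nuclear serine/threonine kinase, and the other with a control vector carrying a scrambled shRNA (sh-scramble). Both were Cal-27 cells grown in DMEM with 10% fetal bovine serum, and the labels do not say whether a transduced culture was 1 clone. The sources used here do not state whether the kit keeps strand. Only 1 library was made per group, so the spread between cultures is unknown, no p-value is given, and every difference is between these libraries without a replicate check.

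EGF family ligands are made as membrane-anchored precursors, and sheddases such as ADAM17 and ADAM10 release the soluble growth factor. TGFA, AREG, EGF and EPGN are known as ligands of EGFR, and HBEGF, BTC and EREG bind both EGFR and ERBB4. The neuregulins NRG1 and NRG2 bind ERBB3 and ERBB4. ERBB2 has no known ligand and serves as the favoured partner of the other receptors, and ERBB3 has little kinase activity of its own. Activated receptors signal through RAS and ERK and through PI3K and AKT. In squamous epithelium EGFR and its ligands form an autocrine loop that is known for keratinocyte growth and migration.

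The total count was 26450251 in the library labelled HIPK2 shRNA and 28064923 in the scramble library. The targeted gene, HIPK2, had 218 counts in the library labelled HIPK2 shRNA and 110 counts in the scramble library, against the label, while its deposited TPM was 0.873 and 1.63, with the label. The transcript length that its deposited FPKM implies was 13824 bases in the library labelled HIPK2 shRNA and 3443 bases in the scramble library. A decrease of HIPK2 was therefore not established, and the sample is called by its label throughout. The squamous epithelial marker list was expressed at 1 CPM (the count scaled for library depth) or more in 12 of 12 genes, and summed in the library labelled HIPK2 shRNA to 4207 CPM and in the scramble library to 4923 CPM. Of those, KRT14 and CDH1 were past 2-fold lower. Of 10 fibroblast markers 3 were expressed (summed 22.0 and 18.7 CPM), of 10 leukocyte markers 4 (34.7 and 38.2 CPM) and of 7 endothelial markers 2 (28.6 and 56.2 CPM), where the first value is that of the library labelled HIPK2 shRNA. In the same order, the expressed fibroblast markers were COL1A1 (12.7 and 9.59 CPM), COL1A2 (6.06 and 6.82 CPM) and PDGFRB (2.70 and 1.60 CPM). The expressed leukocyte markers were CD68 (20.6 and 23.1 CPM), CSF1R (8.80 and 8.42 CPM), CD14 (3.25 and 4.96 CPM) and ITGAM (2.03 and 1.57 CPM). CDH5, with 27.3 CPM in the library labelled HIPK2 shRNA and 55.2 CPM in the scramble library, made up nearly all of the endothelial sum. Other markers of these lists, among them PTPRC, DCN, PDGFRA, PECAM1 and KDR, had 0 counts in both libraries. The part of these markers in the results on ligands and receptors was not tested, and in bulk RNA fewer cells of a type and less RNA per cell cannot be told apart.

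The ligands with the highest levels, HBEGF, TGFA and AREG, had ratios below 1 between the library labelled HIPK2 shRNA and the scramble library, and the receptors did not. Of the 7 ligands 4 were expressed, by the rule of at least 1 CPM in a library, and 2 of these, HBEGF and TGFA, were past 2-fold lower, none past 2-fold higher. Across 11813 expressed genes 2.87% passed 2-fold lower and 3.26% passed 2-fold higher. A gene is called past 2-fold when the log2 ratio of (CPM + 1) reaches 1 or -1, a criterion of size without a test. Brackets hold 95% intervals for counting error only, and such intervals lay below 1 for 34.6% and above 1 for 32.7% of expressed genes, so that an interval clear of 1 is common in these libraries.

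HBEGF (ENSG00000113070, chromosome 5, 140332843 to 140346631, minus strand, GRCh38) encodes the heparin-binding ligand whose precursor is also the diphtheria toxin receptor. It had 453 counts in the library labelled HIPK2 shRNA and 1486 counts in the scramble library, at 16.7 CPM (15.2 to 18.4) and 54.2 CPM (51.4 to 57.0). Its CPM ratio was 0.309 (0.278 to 0.344), and 0.711% of expressed genes had a lower log2 ratio than its -1.64. The implied transcript length was 2383 bases in the library labelled HIPK2 shRNA and 2382 bases in the scramble library, close to its longest annotated transcript of 2386 bases, and the ratio of deposited TPM was 0.331.

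TGFA (ENSG00000163235, chromosome 2, 70447280 to 70554015, minus strand) encodes transforming growth factor alpha, the classical autocrine ligand of keratinocytes. It had 412 counts in the library labelled HIPK2 shRNA and 986 counts in the scramble library, at 15.2 CPM (13.8 to 16.8) and 35.9 CPM (33.7 to 38.3). Its CPM ratio was 0.424 (0.377 to 0.476), and 1.90% of expressed genes had a lower log2 ratio than its -1.19. The ratio of deposited TPM was 0.486. On the log2(TPM + 1) scale TGFA stood at -0.94, short of the 2-fold rule. Its implied transcript length was 3462 bases in the library labelled HIPK2 shRNA and 3704 bases in the scramble library, a difference of -6.54%.

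AREG (ENSG00000109321, chromosome 4, 74445134 to 74455009, plus strand) encodes amphiregulin, a heparin-binding ligand of EGFR. With 149 counts in the library labelled HIPK2 shRNA and 295 counts in the scramble library, it was at 5.51 CPM (4.66 to 6.46) and 10.8 CPM (9.56 to 12.1). Its CPM ratio was 0.512 (0.418 to 0.626), and its log2 ratio of -0.85 was short of 2-fold but past 1.5-fold, where 9.96% of expressed genes were past 1.5-fold lower. At this depth the interval includes a 2-fold difference. EREG (ENSG00000124882, chromosome 4, 74365143 to 74388751, plus strand), the gene of epiregulin, was the expressed ligand that stood apart from those. It had 105 counts in the library labelled HIPK2 shRNA and 102 counts in the scramble library, at 3.88 CPM (3.17 to 4.70) and 3.72 CPM (3.03 to 4.51), with a CPM ratio of 1.04 (0.787 to 1.38).

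**Figure D1:**
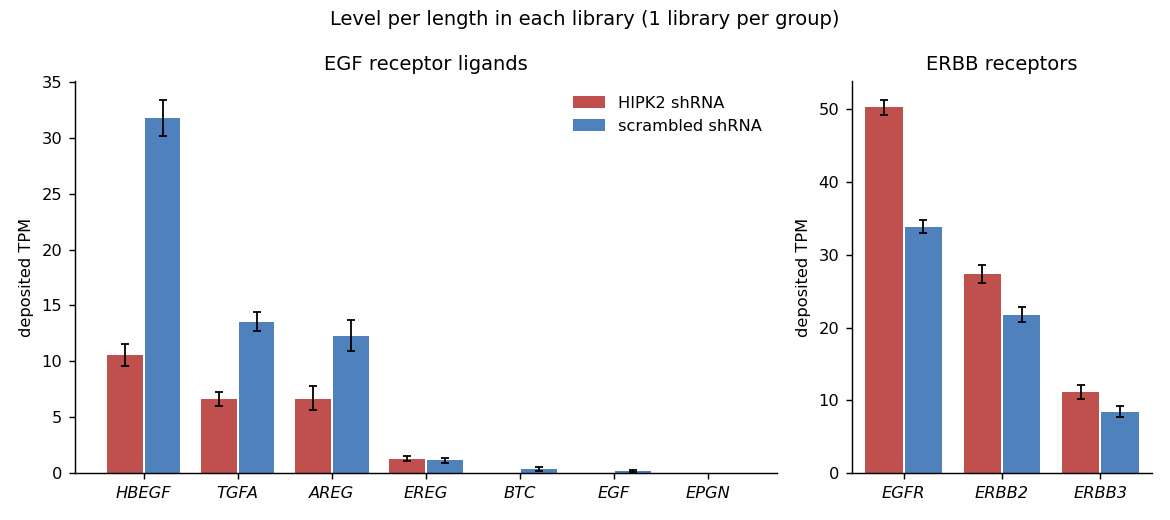
Deposited TPM (y axis) of each ligand and receptor (x axis), red bars for the library labelled HIPK2 shRNA and blue bars for the scramble library, with 95% counting intervals as black lines and 1 library per group. HBEGF stands at 10.5 TPM in the library labelled HIPK2 shRNA and 31.8 TPM in the scramble library, while EGFR stands at 50.3 and 33.9 TPM in the same order.

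The other ligands were at or near the limit of detection. EGF (ENSG00000138798, chromosome 4, 109912884 to 110012266, plus strand), the founding member of the family, had 0 counts in the library labelled HIPK2 shRNA and 13 counts in the scramble library. BTC (ENSG00000174808, chromosome 4, 74744759 to 74794686, minus strand), the gene of betacellulin, had 0 counts in the library labelled HIPK2 shRNA and 19 counts in the scramble library. A count of 0 allows up to 3 counts, or 0.111 CPM in the library labelled HIPK2 shRNA, so EGF was at least 4.27-fold lower and BTC at least 6.25-fold lower there when the scramble level is taken as counted. With the counting error of both libraries, the 95% interval of the fold began at 3.01 for EGF and at 4.60 for BTC. Both levels in the scramble library, 0.474 CPM for EGF and 0.693 CPM for BTC, were under the 1 CPM rule. Such pairs were found in both directions: of 736 genes with 10 to 20 counts in the scramble library, 6.52% had 0 counts in the library labelled HIPK2 shRNA, and of 773 genes with 10 to 20 counts in the library labelled HIPK2 shRNA, 9.57% had 0 counts in the scramble library. This window was chosen after the counts of EGF and BTC had been seen; with an upper end 5 counts higher, as first set, the shares were 5.65% and 9.40% in the same order. EPGN (ENSG00000182585, chromosome 4, 74308473 to 74315307, plus strand), the gene of epigen, had 0 counts in both libraries, which allows up to 0.111 CPM in the library labelled HIPK2 shRNA and 0.109 CPM in the scramble library.

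The promoters of the 4 expressed ligands are shown because HBEGF, TGFA and AREG were lower together while EREG was not. They are the 250 bases before the RefSeq start (GRCh38.p14), 5′ to 3′ on the gene's strand, with motif matches in capitals: chr5:140346604-140346853 (minus) for HBEGF, chr2:70553827-70554076 (minus) for TGFA, chr4:74444886-74445135 (plus) for AREG and chr4:74364895-74365144 (plus) for EREG.
HBEGF: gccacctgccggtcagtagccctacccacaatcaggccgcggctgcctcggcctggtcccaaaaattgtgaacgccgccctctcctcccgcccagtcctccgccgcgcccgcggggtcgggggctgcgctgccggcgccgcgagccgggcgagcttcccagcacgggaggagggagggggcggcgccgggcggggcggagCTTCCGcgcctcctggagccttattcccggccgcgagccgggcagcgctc
TGFA: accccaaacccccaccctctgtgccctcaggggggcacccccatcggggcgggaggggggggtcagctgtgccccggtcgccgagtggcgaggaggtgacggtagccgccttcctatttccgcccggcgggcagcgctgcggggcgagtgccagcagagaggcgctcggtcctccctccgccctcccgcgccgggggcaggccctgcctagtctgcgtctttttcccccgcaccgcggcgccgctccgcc
AREG: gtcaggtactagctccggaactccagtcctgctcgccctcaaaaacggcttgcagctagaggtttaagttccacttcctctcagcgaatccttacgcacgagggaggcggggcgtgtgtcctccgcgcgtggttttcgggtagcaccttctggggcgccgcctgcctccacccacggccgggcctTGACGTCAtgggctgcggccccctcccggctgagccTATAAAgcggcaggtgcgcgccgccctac
EREG: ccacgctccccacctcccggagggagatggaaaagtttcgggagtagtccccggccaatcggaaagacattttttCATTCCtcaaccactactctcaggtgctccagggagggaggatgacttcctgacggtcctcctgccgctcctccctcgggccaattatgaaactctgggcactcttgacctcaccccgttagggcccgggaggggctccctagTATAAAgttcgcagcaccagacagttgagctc
Capitals mark matches, on either strand, to an AP-1 motif (TGANTCA), an ETS motif (CGGAAG), a cAMP response element (TGACGTCA), a TEAD motif (GGAATG) and a TATA box (TATAAA), which overlap nowhere in these sequences. HBEGF held 1 match to CGGAAG, first base 50 bases before the start, and 16.5% of the 35116 promoters of the same length held one. The shorter string GGAA, which other ETS sites share, was not searched or marked. AREG held 1 cAMP response element 65 bases before the start, which 1.65% of all promoters held, and a TATA box. EREG held a TATA box as well, which 10.7% of all promoters held, and 1 TEAD motif, which 11.9% held. TGFA held no match in this window. No AP-1 match (6.57% of all promoters) was found in any of the 4, and the motifs were chosen after the sequences had been seen. Members not shown held such matches too. ERBB2, which was not lower, held 3 matches to CGGAAG and 1 AP-1 match. EGF held 1 AP-1 match and the second EGFR start held 2. BTC, EPGN, the first EGFR start and the second TGFA start held no match to either motif. Whether any match bears on the ratios was not tested. An NF-kB motif was also searched and then left out, and is not reported here. GC content was 76.4% for HBEGF, 75.6% for TGFA, 65.2% for AREG and 58.0% for EREG, and the median of all promoters was 58.0%. Among the receptors it was 65.6% for ERBB2, 73.6% at the first EGFR start and 38.8% at the second. A match is a string of letters and is no measurement of binding.

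All 3 receptors were somewhat higher in the library labelled HIPK2 shRNA, and none reached 1.5-fold, a size that 10.6% of expressed genes reached in that direction. EGFR (ENSG00000146648, chromosome 7, 55019021 to 55211628, plus strand), the receptor of all 7 ligands, had 8702 counts in the library labelled HIPK2 shRNA and 6339 counts in the scramble library. This is 321.6 CPM (314.9 to 328.4) and 231.1 CPM (225.4 to 236.8), so that the ratio was 1.39 (1.35 to 1.44). Its log2 ratio of 0.48 was above that of 85.3% of expressed genes, against 60.2% for ERBB2 (0.10) and 77.3% for ERBB3 (0.32). EGFR-AS1, on the opposite strand and not analysed here, shares 186 of the exonic bases.

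ERBB2 (ENSG00000141736, chromosome 17, 39687914 to 39728662, plus strand), the ligandless partner, had 1933 counts in the library labelled HIPK2 shRNA and 1823 counts in the scramble library. At 71.4 CPM (68.3 to 74.7) and 66.5 CPM (63.4 to 69.6) its ratio was 1.07 (1.01 to 1.15), and the ratio of deposited TPM was 1.25. The implied transcript length of ERBB2 was 3917 bases in the library labelled HIPK2 shRNA and 4259 bases in the scramble library. Its exons share 571 bases with MIEN1 and 194 bases with PGAP3 on the opposite strand. If counting ignored strand, reads from these bases could belong to either gene, and their number was not measured. ERBB3 (ENSG00000065361, chromosome 12, 56079857 to 56103505, plus strand), the neuregulin receptor, had 544 counts in the library labelled HIPK2 shRNA and 436 counts in the scramble library, at 20.1 CPM (18.4 to 21.9) and 15.9 CPM (14.4 to 17.5), and its ratio was 1.26 (1.11 to 1.44).

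**Figure D2:**
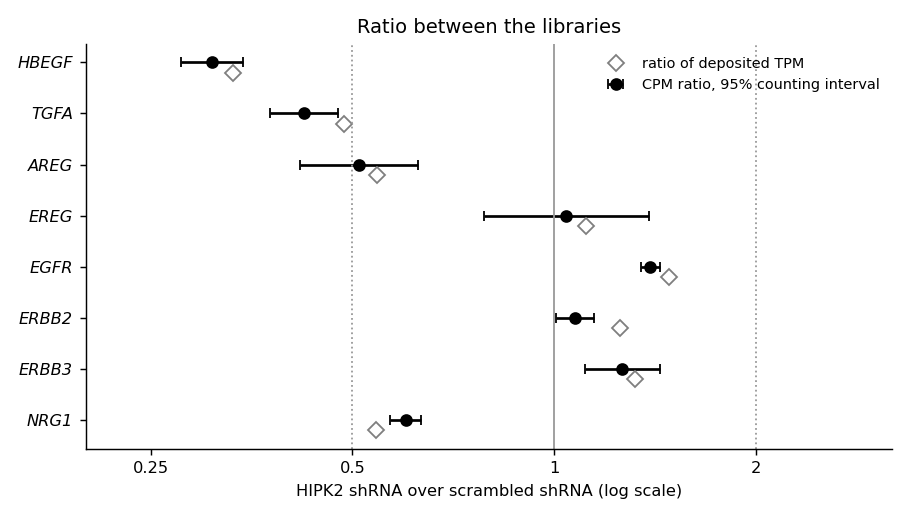
Ratio of the library labelled HIPK2 shRNA over the scramble library (x axis, log scale) for each expressed ligand and receptor and for NRG1 (y axis), as CPM with 95% counting intervals (filled points) and as deposited TPM (open diamonds), with dotted lines at 2-fold. HBEGF and TGFA lie left of the lower 2-fold line in both units, and the CPM ratios of the receptors lie between 1.07 and 1.39.

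Levels between genes can be compared only per length, in deposited TPM. In the library labelled HIPK2 shRNA the order of levels was EGFR (50.3 TPM), ERBB2 (27.3 TPM), ERBB3 (11.1 TPM), HBEGF (10.5 TPM), AREG (6.65 TPM), TGFA (6.59 TPM) and EREG (1.25 TPM). Counting intervals there overlapped between ERBB3 and HBEGF and between AREG and TGFA. In the scramble library the order was EGFR (33.9 TPM), HBEGF (31.8 TPM), ERBB2 (21.8 TPM), TGFA (13.6 TPM), AREG (12.2 TPM), ERBB3 (8.44 TPM), EREG (1.12 TPM), BTC (0.336 TPM) and EGF (0.134 TPM). Overlapping intervals there joined EGFR with HBEGF, TGFA with AREG, and BTC with EGF. HBEGF thus stood below EGFR and ERBB2 in the library labelled HIPK2 shRNA, and within counting error of EGFR in the scramble library.

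The place of ERBB3 in this order rests on a short implied transcript, of 2706 bases in the library labelled HIPK2 shRNA and 2631 bases in the scramble library, where the longest annotated transcript has 5919 bases. Rescaled to that longest transcript, ERBB3 would stand at 5.09 TPM in the library labelled HIPK2 shRNA and 3.75 TPM in the scramble library. For AREG, EREG, EGFR and HBEGF the implied length was within 5% of the longest annotated transcript in both libraries. For TGFA and ERBB2 it was shorter in both, where the longest transcripts have 4310 and 4930 bases. Rescaled likewise, TGFA would stand at 11.6 TPM and AREG at 12.1 TPM in the scramble library. The order of TGFA and AREG there thus rested on the transcript length.

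Summed over the 7 ligands the level was 25.0 TPM in the library labelled HIPK2 shRNA and 59.1 TPM in the scramble library, 2.36-fold lower. Summed over the 3 receptors it was 88.7 TPM in the library labelled HIPK2 shRNA and 64.1 TPM in the scramble library, a ratio of 1.38. The ligand sum was 0.282 times the receptor sum in the library labelled HIPK2 shRNA and 0.922 times the receptor sum in the scramble library. The receptor sum holds ERBB2, which has no known ligand, and ERBB3, a neuregulin receptor, while the ligand sum leaves out the neuregulin gene NRG1. HBEGF made up 42.1% of the ligand sum in the library labelled HIPK2 shRNA and 53.7% in the scramble library. TGFA made up 26.3% and 22.9% and AREG 26.6% and 20.7%, with the library labelled HIPK2 shRNA first. EREG, at an almost equal level in both libraries, took 5.01% of the smaller sum in the library labelled HIPK2 shRNA and 1.90% in the scramble library. Without HBEGF the ratio of the ligand sums was 0.529. The makeup of the receptor sum differed little, with EGFR at 56.7% in the library labelled HIPK2 shRNA and 52.9% in the scramble library.

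**Figure D3:**
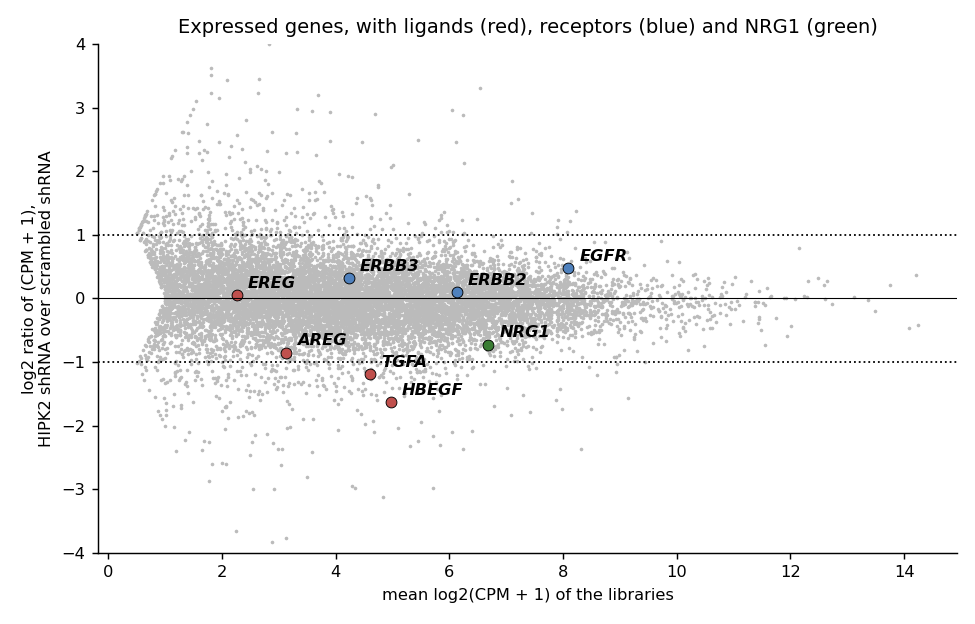
Log2 ratio of (CPM + 1), library labelled HIPK2 shRNA over scramble library (y axis), against the mean log2(CPM + 1) of the libraries (x axis) for 11813 expressed genes (grey points), with expressed ligands in red, receptors in blue, NRG1 in green and dotted lines at 2-fold. HBEGF and TGFA lie below the lower line, AREG and NRG1 lie between it and 0, and EREG and the receptors lie above 0, while 7 grey points fall outside the axis.

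In deposited TPM the most abundant ligand gene of the wider ERBB family was not a member of the EGF receptor set. NRG1 (ENSG00000157168, chromosome 8), the gene of neuregulin-1, a ligand of ERBB3, had 2142 counts in the library labelled HIPK2 shRNA and 3616 counts in the scramble library. Its level was 43.9 TPM in the library labelled HIPK2 shRNA and 81.1 TPM in the scramble library, above each of the 7 EGF receptor ligands in both libraries. Rescaled to its longest transcript of 5931 bases, an alternative chosen after seeing the data, the level of NRG1 was 19.99 TPM in the library labelled HIPK2 shRNA and 31.0 TPM in the scramble library. HBEGF, rescaled likewise, was at 10.5 TPM in the library labelled HIPK2 shRNA and 31.7 TPM in the scramble library. The counting interval of HBEGF in the scramble library, 30.2 to 33.4 TPM before rescaling, holds both rescaled levels. The place of NRG1 above HBEGF in the scramble library thus rested on the transcript length. In CPM it stood at 79.2 (75.8 to 82.6) and 131.8 (127.6 to 136.2), a ratio of 0.601 (0.569 to 0.634). Its log2 ratio of -0.73 was short of 2-fold, and 6.40% of expressed genes had a lower one. The implied transcript length of NRG1 differed by 18.9%, at 2701 bases in the library labelled HIPK2 shRNA and 2271 bases in the scramble library. Neither NRG3, NRG4 nor ERBB4 had a count in either library, and NRG2 had 0 counts in the library labelled HIPK2 shRNA and 4 counts in the scramble library. With NRG1 added, the ligand sum was 68.9 TPM in the library labelled HIPK2 shRNA and 140.2 TPM in the scramble library. It then stood below the receptor sum of 88.7 TPM in the library labelled HIPK2 shRNA. In the scramble library it stood above the receptor sum of 64.1 TPM.

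The genes around the ligands and receptors were taken as 8 lists with 110 genes, of which 105 were expressed. On the log2(CPM + 1) scale 5 of these were past 2-fold lower and 1 past 2-fold higher. Over all expressed genes the shares were 2.87% lower and 3.26% higher. All but 1 of the 5 belonged to the output of ERK, and the lists from receptor adaptors to ERK and AKT held none on this scale. As plain CPM ratios, SPRY4 (0.475) and ETV1 (0.384) of the ERK output also passed 2-fold lower. SOS2 (2.32) of the adaptors and NF1 (2.06) of RAS to ERK passed 2-fold higher that way. Of 11 expressed genes of ligand shedding 6 had a log2 ratio above 0 and 5 below, with a median of 0.17, where the median of all expressed genes was 0.00023. ADAM17, the main sheddase of TGFA, AREG and HBEGF, had 321 counts in the library labelled HIPK2 shRNA and 347 counts in the scramble library, a CPM ratio of 0.938 (0.803 to 1.09). ADAM10, known as the sheddase of EGF and BTC, had a CPM ratio of 1.14 (1.02 to 1.27). ADAM8, a metalloprotease, was the shedding gene past 2-fold lower, at 30.9 CPM in the library labelled HIPK2 shRNA and 135.1 CPM in the scramble library.

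Among 18 genes that restrain the receptors, 12 were above 0 and 6 below, with a median of 0.092. CBL, the ubiquitin ligase that marks EGFR for degradation, was the one past 2-fold, with 276 counts in the library labelled HIPK2 shRNA and 42 counts in the scramble library. In deposited TPM CBL stood at 1.36 in the library labelled HIPK2 shRNA and 0.333 in the scramble library. Its log2 ratio of (TPM + 1) was 0.82, short of the 2-fold rule on that scale. Adding 1 to levels this low shrinks the ratio, and the plain TPM levels were more than 2-fold apart. In TPM ZNRF1, another ubiquitin ligase, was past 2-fold higher, at 1.11, against 0.39 in CPM. None of the 15 receptor traffic genes was past 2-fold in CPM (median 0.068), while RAB11A, a GTPase of recycling endosomes, stood at 0.53 in CPM and 2.49 in TPM. The largest absolute log2 ratios there in CPM were -0.66 for RAB7A, a GTPase of late endosomes, and 0.58 for CLTC, the clathrin heavy chain, which stood at 0.93 in TPM. None of the 15 adaptors was past 2-fold on the log2(CPM + 1) scale (median -0.13), with SOS2, a RAS exchange factor, at 0.85 and PLCG1, a phospholipase, at 0.65.

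Of the 15 genes from RAS to ERK 12 were above 0 and none was past 2-fold (median 0.20). NF1, a RAS-inactivating protein, was at 0.99, with 675 counts in the library labelled HIPK2 shRNA and 332 counts in the scramble library, just short of 2-fold on this scale. MAP2K1, the ERK kinase MEK1, was at -0.80. Of the 12 genes from PI3K to AKT 10 were above 0 and none was past 2-fold (median 0.26), with RICTOR at 0.59 and PIK3R3 at 0.50. Of the 18 ERK output genes 15 were below 0 and 4 past 2-fold lower, where 2.87% of all expressed genes were, with a median of -0.78. These 4 were DUSP6, an ERK phosphatase, at -1.35, ETV4, an ETS factor, at -1.14, FOSL1, an AP-1 subunit, at -1.08, and PHLDA1 at -1.02. In deposited TPM FOSL1 and PHLDA1 were at -0.96 and -0.97, short of 2-fold. An ERK output list with partly the same genes was already known to be lower in these libraries when the list was drawn up, so its direction is not independent evidence.

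**Figure D4:**
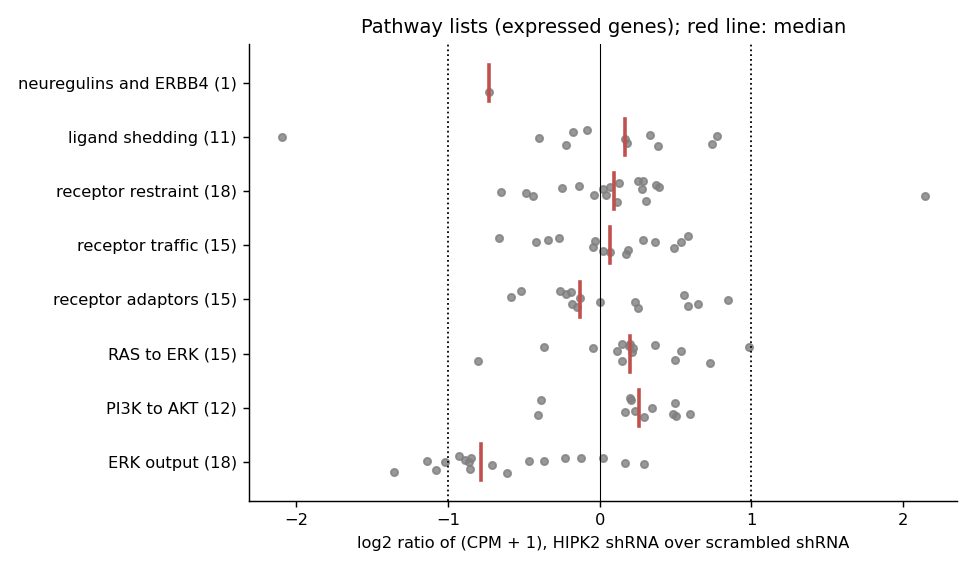
Log2 ratio of (CPM + 1), library labelled HIPK2 shRNA over scramble library (x axis), of each expressed gene (grey points, spread vertically for sight) in the 8 lists around the ERBB pathway (y axis, with the number of expressed genes), with the list median in red and dotted lines at 2-fold. The ERK output median stands at -0.78, and the medians of the lists from shedding to AKT lie between -0.13 and 0.26.

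The chromosomal neighbours of the set were lower at some places and higher at others. The 3 nearest expressed genes on each side of each member gave 42 genes outside the set, with a median log2 ratio of -0.060. Among them 3 met the 2-fold rule upwards and 1 downwards. Over all expressed genes the rule was met upwards by 3.26% and downwards by 2.87%. Whether such small counts differ from these shares was not tested. The ligand genes EPGN, EREG, AREG and BTC lie in 1 cluster on chromosome 4. EREG and AREG are 56.4 kb apart and had log2 ratios of 0.05 and -0.85. The neighbours CXCL2 and CXCL3, chemokine genes on the side of EPGN, had log2 ratios of -0.75 and 0.32. Near TGFA, ADD2, a membrane skeleton gene 53.6 kb away, had 93 counts in the library labelled HIPK2 shRNA and 24 counts in the scramble library, a CPM ratio of 3.93 (2.49 to 6.44).

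Near HBEGF, ANKHD1 had 331 counts in the library labelled HIPK2 shRNA and 1013 counts in the scramble library, while ANKHD1-EIF4EBP3, by its name a read-through of that gene, had 719 and 269 counts in the same order. A read-through transcript shares exons with its gene, so the division of reads between them is uncertain. Around EGFR no neighbour was past 2-fold, with SEC61G at -0.058, LANCL2 at -0.19 and VOPP1 at -0.10, genes often co-amplified with EGFR in tumours. The other neighbours there were GRB10 at -0.79, COBL at -0.25 and ZNF713 at 0.17. Around ERBB2, GRB7 stood at -0.15, MIEN1 at 0.20, STARD3 at 0.26, PGAP3 at 0.33, CDK12 at 0.55 and GSDMB at -0.55. Near ERBB3, SUOX, the gene of sulfite oxidase, had 637 counts in the library labelled HIPK2 shRNA and 83 counts in the scramble library, a CPM ratio of 7.78 (6.18 to 9.90).

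With 2 libraries a pattern is only a pair of levels, so likeness says no more than a like level and ratio. Within a distance of 0.25 in log2(CPM + 1) over the 2 libraries lay 4 expressed genes for HBEGF and 20 for TGFA. The nearest to HBEGF were PLEKHG4B, at 16.6 CPM in the library labelled HIPK2 shRNA and 52.9 CPM in the scramble library, and CASP2, at 18.4 and 50.8 CPM in the same order. The nearest to TGFA were SMAGP, at 15.1 CPM in the library labelled HIPK2 shRNA and 35.0 CPM in the scramble library, and TNFRSF10A, at 15.7 and 35.3 CPM in the same order.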

How the data were processed

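RNA-seq of 2 cultures was deposited as 1 table per sample, listing 20263 genes with count, TPM and FPKM columns, per the file headers. The submitters' processing notes name FastQC, TopHat2 2.1.1 and the build GRCh38 (hg38) for the paired reads of 150 bp; how reads were counted, and with which annotation and strand setting, is not stated in the sources used here. The deposited count is a whole number per gene and was not normalized. The deposited TPM is scaled by length and library and was used for levels between genes. The deposited FPKM gave only the implied transcript length: count over FPKM, scaled on 342 genes with 1 transcript in GENCODE 29, of which 98.5% matched their length within 1%. Over 10342 genes with at least 50 counts in both libraries, that length differed by less than 5% between libraries for 63.3% of genes.

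Counts were scaled to CPM with TMM factors (1.02 in the library labelled HIPK2 shRNA and 0.977 in the scramble library) from edgeR 4.0.16 in R 4.3.3. With 1 library per group no model was fitted and no test was run. Ratios carry 95% exact Clopper-Pearson intervals conditional on the summed count, levels carry exact Poisson intervals (scipy 1.17.1), and both cover counting error only, as PCR copies cannot be told from separate molecules without identifiers. The pseudocount was 1 CPM and the filter 1 CPM in at least 1 library. The rule of size was tried on simulated counts with counting error only and no spread between cultures. It called 0 of 11424 unchanged expressed genes, 0 of 50 genes set 1.5-fold apart and 49 of 50 set 3-fold apart. How often it would call unchanged genes between replicate cultures remains unknown. The members, lists and alternatives were chosen with earlier results of these data known. Named genes were HIPK2, the 10 members, the genes of each list past 2-fold (at most 4, otherwise the 2 with the largest absolute log2 ratio), the neighbours past 2-fold, and the 2 genes nearest in level to each member past 2-fold. ADAM17, ADAM10, ZNRF1, RAB11A, CXCL2, CXCL3, the neighbours of EGFR and ERBB2, the marker genes and the other neuregulins were named after their values were seen. Promoters are from RefSeq (GRCh38.p14) and matched 9 of the 10 members, ERBB3 being the exception; TGFA and EGFR have a second start, not shown here.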

Additional observations from a re-analysis of the deposited data

How the results depend on the processing

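Leaving out a replicate was not possible. No paired analysis was possible because there is only 1 library in either group. Under DESeq2 1.42.0 size factors, upper-quartile factors, total count alone, deposited TPM and pseudocounts of 0.1 and 5, each of the 7 expressed members kept its sign, and HBEGF ranged from -1.69 to -1.44 on the log2 scale. In deposited TPM, TGFA was -0.94, EGFR 0.56 and ERBB2 0.31, so that 1 ligand instead of 2 was past 2-fold lower. EGFR was 0.55 under upper-quartile factors and 0.54 with total count alone. With a pseudocount of 5, HBEGF was -1.44, TGFA -1.02 and AREG -0.58. No expressed ligand (0 of 4) was past 4-fold lower on the log2(CPM + 1) scale. The ratio of summed ligands, 0.423 in TPM, was 0.391 in CPM, 0.529 without HBEGF and, with NRG1, chosen after seeing the data, 0.492. The ratio of summed receptors, 1.38, was 1.32 in CPM and 1.27 without EGFR. Of the list genes, 5 were past 2-fold lower and 1 higher. The higher count was 2 under upper-quartile factors, with total count alone and in TPM, and 3 with a pseudocount of 0.1. The lower count was 4 under upper-quartile factors and with total count alone, 3 in TPM, 7 with a pseudocount of 0.1 and 3 with a pseudocount of 5. None of 64 list medians under other settings changed sign. Of these, 5 left the range from the median lower to the median upper counting bound of the genes in the list. That range is the width for a typical gene and is no interval for the list median. Without a filter the median of the neuregulin list is that of genes at 0. The cause was not tested. Depth limits BTC, EGF and EPGN: 1 count is worth 0.037 CPM in the library labelled HIPK2 shRNA and 0.0365 CPM in the scramble library.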
